A study of Mus musculus with 6 samples.

Results

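The Notch genes described here are 10 genes chosen by name from the 49585 listed in each deposited table: the receptors Notch1, Notch2 and Notch3, the ligands Dll1, Dll3 and Jag1, and the transcription factors Hes1, Hes5, Hes6 and Hey1. Each name matched 1 row, all 10 are protein coding, and all 10 passed the filter on low counts. RNA was sequenced from mGB2, a line of mouse glioblastoma cells, labelled as glioblastoma stem cells, in 3 libraries with the genotype Bcat1-KO and 3 labelled Control. All 6 came from untreated cells fed a neural medium with the N2 and B27 supplements, EGF and FGF, attached to matrix-coated plates and harvested at confluency, and the labels do not say how the knockout was made or whether it is 1 clone. The replicates are not stated to be separate cultures, so the p-values rest on a spread among libraries that may be technical.

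Notch signalling passes between touching cells. A Delta or Jagged ligand on 1 cell binds a Notch receptor on its neighbour, proteases cut the receptor, and its inner part enters the nucleus, where it joins the DNA-binding protein Rbpj and Mastermind coactivators to switch on Hes and Hey genes. In neural stem cells the Hes and Hey repressors hold down proneural factors, which themselves drive Delta ligands. The question the comparison addresses is which of these genes differ in RNA level when Bcat1, the cytosolic branched-chain aminotransferase gene, is targeted.

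Promoter windows are shown for 3 members that were higher in the knockout libraries, the target Hes5 and the ligands Dll3 and Dll1, since sites for Rbpj and for proneural bHLH factors are what such promoters are known for. RefSeq windows of 300 bases (250 before and 50 after an annotated start, GRCm38.p6, the assembly behind mm10) were found for 8 of the 10 members. The Hes5 window is chr4:154960673-154960972 on the plus strand, that of Dll3 is chr7:28301736-28302035 on the minus strand, and the Dll1 window shown is chr17:15376883-15377182 on the minus strand. All are written 5′ to 3′. Capitals mark the Rbpj motif GTGGGAA, on either strand, in Hes5, and the E-box CAGCTG, which reads the same on both strands, in Dll3 and Dll1.
Hes5: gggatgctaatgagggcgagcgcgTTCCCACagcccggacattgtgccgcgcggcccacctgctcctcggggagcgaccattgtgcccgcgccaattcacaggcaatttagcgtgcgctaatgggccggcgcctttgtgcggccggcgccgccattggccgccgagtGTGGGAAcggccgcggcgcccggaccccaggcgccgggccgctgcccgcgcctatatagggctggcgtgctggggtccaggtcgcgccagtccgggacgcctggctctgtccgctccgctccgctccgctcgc
Dll3: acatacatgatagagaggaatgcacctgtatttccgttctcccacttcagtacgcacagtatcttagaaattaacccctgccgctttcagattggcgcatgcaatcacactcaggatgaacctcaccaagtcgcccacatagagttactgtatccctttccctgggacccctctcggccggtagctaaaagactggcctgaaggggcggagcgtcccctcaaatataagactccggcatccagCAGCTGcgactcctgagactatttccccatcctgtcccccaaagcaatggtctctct
Dll1: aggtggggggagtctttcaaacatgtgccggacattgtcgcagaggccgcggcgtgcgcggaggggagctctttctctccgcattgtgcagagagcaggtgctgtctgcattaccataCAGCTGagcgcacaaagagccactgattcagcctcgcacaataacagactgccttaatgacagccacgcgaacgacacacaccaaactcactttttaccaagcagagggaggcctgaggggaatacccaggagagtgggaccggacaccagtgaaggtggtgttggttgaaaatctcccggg

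The Hes5 window held GTGGGAA at 2 places, in opposite orientations and with 136 bases between them, starting at -226 and -83 relative to the start. Of 32851 windows of the same length, 6.38% held this motif at least once and 0.256% at 2 or more places. Among the 8 members with a window, Hes5 was the 1 that held it. Hes1 and Hey1 had no window, so their promoters were not searched. CAGCTG was found in windows of 4 members, Dll1, Dll3, Jag1 and Hes6, against 16.3% of all windows, and it did not overlap GTGGGAA. A second Dll1 window, chr17:15375774-15376073, held neither. These are matches of letters, not measured binding sites.

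Of the 10 members, 7 were higher in the knockout, 2 were lower and 1 did not pass the test (quasi-likelihood F-test of edgeR, p adjusted by Benjamini-Hochberg over 14020 tested genes, threshold 0.05). The background was high: 62.3% of all tested genes passed, 32.0% higher and 30.3% lower. Hes5, Notch3, Hey1, Dll3 and Dll1, 5 of the members, were at least 2-fold higher, as were 9.76% of tested genes. No member was 2-fold lower, as 9.43% of tested genes were. The groups did not overlap for 8 of the 10 members, against 67.7% of tested genes. The median log2 fold change was 1.0 over the members and 0.01 over all tested genes. The members were chosen with earlier results of these data known, so these comparisons do not test the set. Levels here are CPM, which divides counts by library size after TMM scaling in edgeR, unless TPM, which also divides by gene length, is named.

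**Figure D1:**
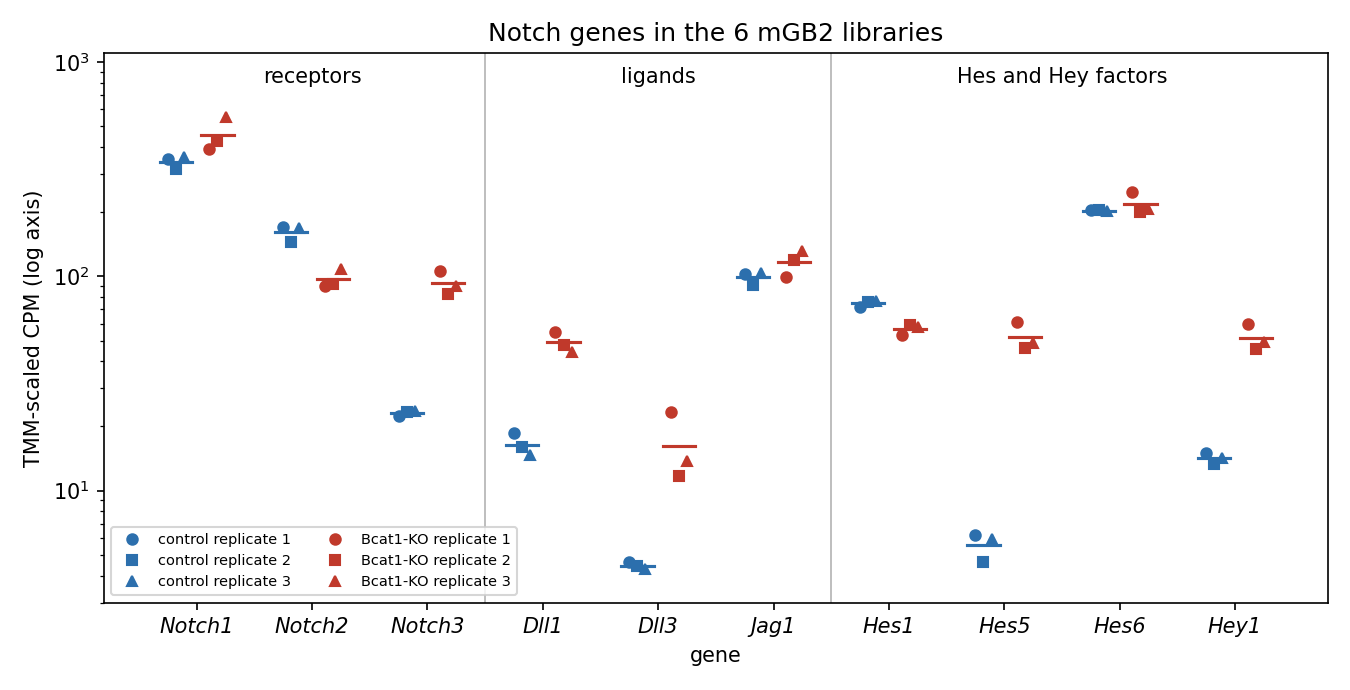
Level of each Notch gene in each library, in TMM-scaled CPM on a log axis; symbols are libraries and horizontal lines are group means. Hes5, Hey1, Notch3, Dll1 and Dll3 lie well above the control in every knockout library, Notch2 and Hes1 lie below it, and the groups overlap for Jag1 and Hes6.

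The libraries held 29543157 to 37800648 reverse-strand counts, so 3 counts correspond to 0.078 to 0.103 CPM. Bcat1 itself was at 155, 176 and 173 CPM in the 3 knockout libraries, all below the 214, 223 and 232 CPM of the control libraries. Its mean was 168 ± 11.5 CPM in the knockout, against 223 ± 9.26 CPM in the control (means ± SD of 3 libraries), with a log2 fold change of -0.41 (edgeR adjusted p = 0.000355). A sum over the whole gene does not check an edit within it. Within the knockout, replicate 1 differed from the other 2 libraries by 0.365 and 0.368 (root mean square log2 CPM) against 0.271 between those 2, and within the control these values were 0.264 to 0.3. Of 7 stem cell markers, 6 were above 1 CPM in both groups. The 7 summed to 2058 to 2259 CPM in the knockout and 1475 to 1539 CPM in the control. The higher sum came from Olig2 (means of 563.5 and 268.4 CPM in knockout and control), Sox2 (336 and 136 CPM), Vim (838 and 687.7 CPM) and Sox9 (52.56 and 18.82 CPM). Nes (241 ± 19.77 and 257.8 ± 9.319 CPM) and Msi1 (140.6 ± 8.277 and 144.6 ± 8.061 CPM) had slightly lower means in the knockout. Prom1, the stem cell marker CD133, had 0 CPM in the control, and in the knockout 0.829 ± 0.0248 CPM.

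Among the receptors, Notch3 changed most. It is a receptor of neural progenitors and of mural cells of blood vessels (ENSMUSG00000038146.7, chr17:32120820-32166880, mm10, minus strand). The level was 106, 82.3 and 90.2 CPM in the knockout libraries, against 22.3, 23.3 and 23.5 CPM in the control libraries. Every knockout library was far above every control library. Notch3 rose 4.03-fold (log2 fold change 2.01, SE 0.09, edgeR adjusted p = 4.07e-09). In bulk RNA, more cells of a type and more RNA per cell cannot be told apart. The 7 fibroblast and mural markers had a summed level of 4.49 to 6.07 CPM in the knockout and 24.7 to 26.5 CPM in the control. Col1a1 (4.21 ± 0.973 and 17.7 ± 0.783 CPM in knockout and control), Pdgfrb (0.224 ± 0.0872 and 4.54 ± 0.0349 CPM) and Acta2 (0.0714 ± 0.0393 and 2.88 ± 0.314 CPM) carried that difference. The other 4 were below 1 CPM in both groups, with Dcn higher in the knockout (0.405 ± 0.112 and 0.0748 ± 0.0183 CPM) and Rgs5 at 0 there and 0.0516 ± 0.0621 CPM in the control.

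Notch1, the receptor most studied in neural stem cells (ENSMUSG00000026923.15, chr2:26457903-26516663, minus strand), had 394, 428 and 552 CPM in the knockout libraries and 352, 317 and 359 CPM in the control libraries. The groups did not overlap, but knockout replicate 3 stood above the other 2. Notch1 rose by a log2 fold change of 0.42 (SE 0.11, edgeR adjusted p = 0.00699), or 0.25 without Bcat1-KO replicate 3 (adjusted p = 0.0233). Notch2, a receptor also found in neural stem cells (ENSMUSG00000027878.11, chr3:98013527-98150361, plus strand), had 90.1, 92.2 and 108 CPM in the knockout, while the control had 169, 144 and 168 CPM. It was lower in every knockout library, and the log2 fold change was -0.73 (SE 0.09, edgeR adjusted p = 1.87e-05).

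The makeup of the receptor set differed between the groups. Per length, Notch2 gave 35.6 ± 0.751% of the summed TPM of the 3 receptors in the control and 17.1 ± 0.404% in the knockout. Notch3 gave 6.87 ± 0.573% in the control and 22.1 ± 4.13% in the knockout, while Notch1 stayed the main receptor, with 57.6 ± 0.231% and 60.8 ± 4.24% (mean ± SD, n = 3 each). The summed receptor TPM was 132 ± 10.1 in the control and 173 ± 22.1 in the knockout. The log2 ratio of Notch1 to Notch2 counts within a library, which does not depend on scaling between libraries, was 2.23 ± 0.12 in the knockout and 1.10 ± 0.04 in the control. For 6 of 7 such ratios tested the 2 groups did not overlap, and each of those had an exact two-sided permutation p of 0.1, the smallest that 3 against 3 libraries allows (0.117 after Benjamini-Hochberg adjustment). Several of these ratios share a gene, so they are not separate results. Of single tested genes, 67.7% also did not overlap between the groups, and no such share is given here for ratios of other genes.

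**Figure D2:**
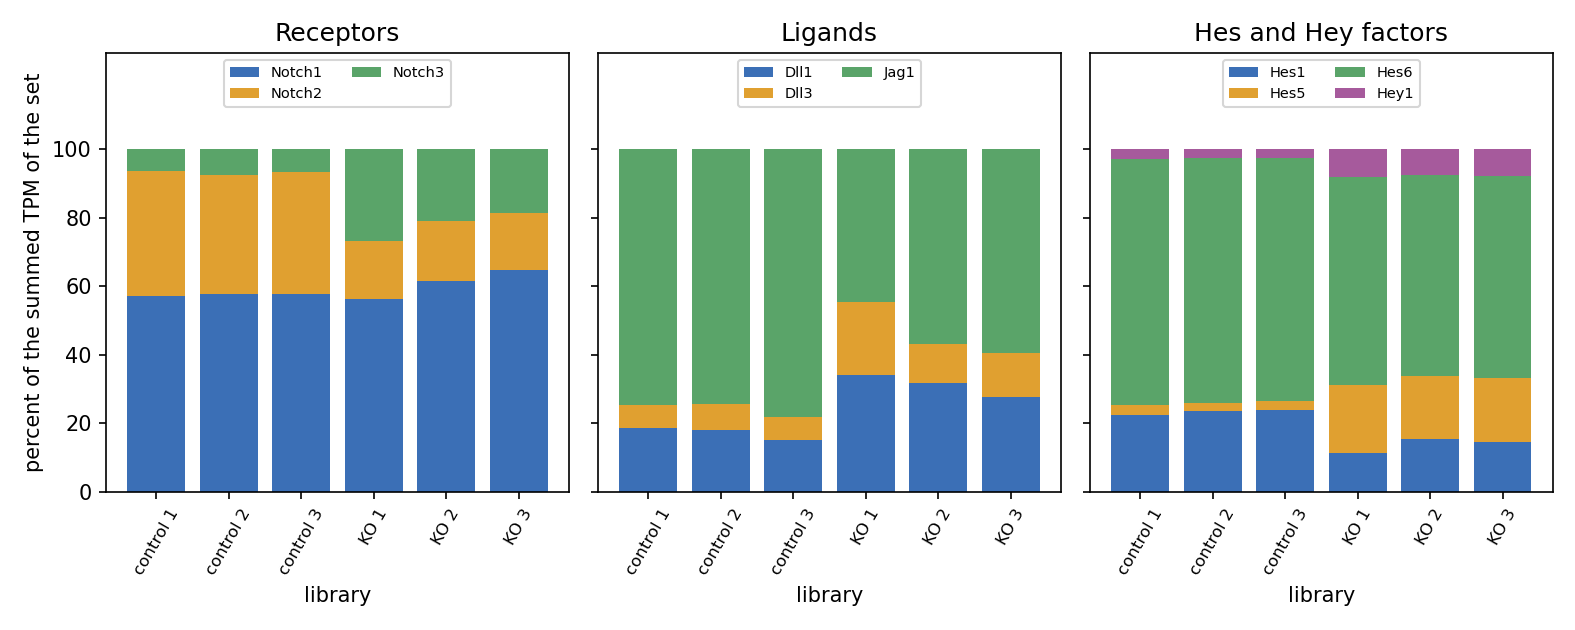
Share of each gene in the summed TPM of its set, by library, for receptors, ligands, and Hes and Hey factors. In the knockout bars Notch3, Dll1, Dll3, Hes5 and Hey1 take larger shares and Notch2, Jag1, Hes1 and Hes6 smaller ones than in the control bars.

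All 3 ligand genes passed the test as higher, by very unequal amounts. Dll1, a Delta ligand of neural progenitors (ENSMUSG00000014773.13, chr17:15367354-15376872, minus strand), had 54.8, 47.9 and 44.5 CPM in the knockout libraries and 18.5, 15.9 and 14.7 CPM in the control libraries. Each knockout library was more than 2-fold above each control library. Dll1 rose 3.0-fold (log2 fold change 1.58, SE 0.10, edgeR adjusted p = 9.39e-08).

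Dll3 is a Delta protein known to sit inside the cell and to restrain Notch in the cell that makes it (ENSMUSG00000003436.11, chr7:28293553-28302238, minus strand). It had 23.2, 11.7 and 13.7 CPM in the knockout, while the control had 4.64, 4.43 and 4.3 CPM. Knockout replicate 1 was the highest by a wide margin, and the other 2 knockout libraries were still above all controls. The log2 fold change was 1.86 (SE 0.23, edgeR adjusted p = 2.23e-05) over all libraries and 1.49 without Bcat1-KO replicate 1 (adjusted p = 9.37e-08).

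Jag1, the Jagged ligand of this set (ENSMUSG00000027276.7, chr2:137081456-137116644, minus strand), had 99, 119 and 131 CPM in the knockout, while the control had 102, 90.5 and 103 CPM. The groups overlapped, since knockout replicate 1 lay below control replicates 1 and 3. Its log2 fold change of 0.24 (SE 0.10, edgeR adjusted p = 0.0496) was at the edge of the threshold and did not pass in 12 of 15 other fits. The adjusted p ranged from 0.00138 without Bcat1-KO replicate 1 to 0.247 without Bcat1-KO replicate 3 among the fits that leave out 1 library. The 50 tested genes around Jag1 had a median log2 fold change of 0.29, and with that median removed the value for Jag1 was -0.05 (adjusted p = 0.673).

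Jag1 was still the most abundant of the 3 ligands per length in each group, but its share of their summed TPM was 75.7 ± 2.02% in the control and 53.7 ± 7.96% in the knockout. Dll1 gave 17.3 ± 1.78% in the control and 31.2 ± 3.18% in the knockout, and the summed ligand TPM was 70.7 ± 4.96 in the control and 122 ± 3.0 in the knockout. The log2 ratio of Jag1 to Dll1 counts was 1.35 lower in the knockout. The log2 ratio of Dll1 to Dll3 counts was 1.66 ± 0.40 in the knockout and 1.87 ± 0.11 in the control, with overlapping groups (exact permutation p = 0.5).

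The Hes and Hey factors differed widely in their change. Hes5, a bHLH repressor and a classical readout of Notch activity in neural stem cells, changed most of all members (ENSMUSG00000048001.7, chr4:154960923-154962371, plus strand). The level was 60.8, 46.3 and 48.9 CPM in the knockout libraries, against 6.2, 4.64 and 5.92 CPM in the control libraries. The lowest knockout library was above the highest control library by several fold. Hes5 rose 9.33-fold (log2 fold change 3.22, SE 0.13, edgeR adjusted p = 1.64e-09), and its promoter window is the one with 2 GTGGGAA matches printed above.

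Hey1, a related repressor also induced by Notch in vessels and neural progenitors (ENSMUSG00000040289.8, chr3:8663359-8667256, minus strand), had 59.9, 45.8 and 49.3 CPM in the knockout, while the control had 14.95, 13.2 and 14.2 CPM. The groups were well apart, and as for Hes5 knockout replicate 1 was the highest. Hey1 rose 3.66-fold (log2 fold change 1.87, SE 0.10, edgeR adjusted p = 2.4e-08).

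Hes1, the repressor that many signals besides Notch also control, went the other way (ENSMUSG00000022528.7, chr16:30064384-30067796, plus strand). It had 52.9, 59.1 and 57.7 CPM in the knockout, while the control had 72.1, 75.6 and 76.2 CPM. Every knockout library was lower, by a modest amount, and the log2 fold change was -0.40 (SE 0.07, edgeR adjusted p = 0.000253). Within a library, the log2 ratio of Hes5 to Hes1 counts was -0.13 ± 0.29 in the knockout and -3.75 ± 0.25 in the control, a difference of 3.62. The log2 ratio of Hey1 to Hes1 counts differed by 2.27 in the same direction.

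Hes6, a family member known to oppose Hes1 and to promote differentiation, was the 1 member that did not pass (ENSMUSG00000067071.8, chr1:91411483-91414038, minus strand). It had 248, 199 and 205 CPM in the knockout, while the control had 203, 203 and 201 CPM. The groups overlapped, and knockout replicate 1 stood above the rest. The log2 fold change was 0.10 (95% interval -0.08 to 0.28, edgeR adjusted p = 0.309), and it was -0.02 without Bcat1-KO replicate 1 (adjusted p = 0.747) and 0.23 with the median of neighbouring genes removed (adjusted p = 0.0329).

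**Figure D3:**
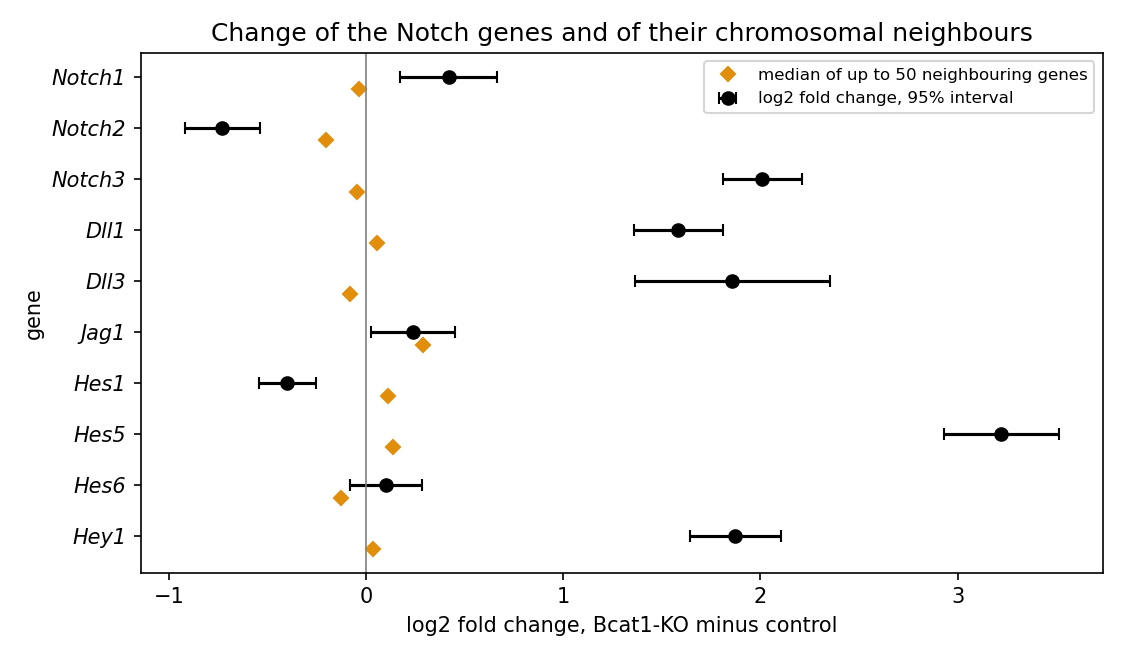
Log2 fold change of each Notch gene (black, with its 95% interval) and the median over up to 50 neighbouring tested genes on the chromosome (orange), knockout minus control. Neighbour medians lie between -0.20 and 0.29, and for Jag1 the neighbours' median is as large as the gene's own change.

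Some stretches of the genome had neighbour medians away from 0. The neighbour medians were -0.20 for Notch2 and 0.29 for Jag1, and between -0.13 and 0.14 for the other 8 members. With them removed, Notch2 was at -0.53 and Hes1 at -0.51, and Hes5 was at 3.08.

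The order of the members by TPM also differed between the groups. In the control, Hes6 came first with 354 ± 3.63 TPM, followed by Hes1 with 116 ± 2.97 and Notch1 with 76.0 ± 5.67. Jag1 with 53.5 ± 4.26 and Notch2 with 47.0 ± 4.46 were next and overlapped each other. Hey1 with 13.7 ± 0.948, Hes5 with 13.0 ± 2.03 and Dll1 with 12.3 ± 1.5 could not be ordered beyond their spread, and Notch3 with 9.03 ± 0.227 and Dll3 with 4.94 ± 0.212 TPM came last.

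In the knockout, Hes6 again came first with 393 ± 40.2 TPM, and Hes5 moved to the second place with 125 ± 16.1. Notch1 followed with 106 ± 20.2 TPM, overlapping Hes5 above it and Hes1 below it, which had 91.0 ± 6.83. Jag1 with 65.6 ± 10.1 and Hey1 with 51.8 ± 6.36 overlapped, as did Dll1 with 38.1 ± 3.44 and Notch3 with 37.7 ± 4.12. Notch2 with 29.4 ± 3.2 and Dll3 with 18.5 ± 6.67 TPM were the lowest, and Notch2, the second receptor in the control, had become the third.

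Strand and overlapping genes were checked, since 4 members overlap a gene on the other strand. Of the reads on either strand of a member, 0.0454% to 0.327% were on the forward strand. Hes5 shares 756 bases with Gm20421, which had 12 reverse-strand counts over the knockout group and 2 over the control, against 5756 and 521 for Hes5. Counts without regard to strand kept 61.6% of the Hes5 reads in the knockout and 55.9% in the control, and gave a log2 fold change of 3.37. For Dll1, which overlaps A930024N18Rik, they kept 85% and 85.4%. For Notch1 they kept 89.4% and 89.1%, for Notch3 93.8% and 93.4%, and no call among the 10 members changed.

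Endothelial cells and microglia, which also carry Notch genes, left little RNA, with none of their markers at 1 CPM or more in either group. The 6 endothelial markers summed to 0.305 to 0.78 CPM in the knockout and 0.826 to 1.06 CPM in the control, with Cldn5 at 0 throughout. The 7 microglia and macrophage markers summed to 0.413 to 0.665 and 0.275 to 0.477 CPM, with Itgam and P2ry12 at 0. The 5 neuronal markers summed to 29.7 to 42.5 CPM in the knockout and 54.1 to 56.3 CPM in the control, and Stmn2 was at 0. The lower sum came from Rbfox3 (0.0719 ± 0.0415 and 33.1 ± 0.667 CPM in knockout and control), while Syt1 (23.1 ± 5.21 and 12.7 ± 0.554 CPM), Tubb3 (11.2 ± 1.96 and 8.99 ± 1.52 CPM) and Snap25 (0.126 ± 0.0263 and 0.0344 ± 0.0596 CPM) had higher means in the knockout. The 4 astrocyte markers summed to 955 to 982 CPM in the knockout and 241 to 263 CPM in the control, with 3 of them at 1 CPM or more in the knockout and 1 in the control. Most of that sum was the glutamate transporter gene Slc1a3, and the part of that difference in the Notch results was not tested.

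The rest of the pathway did not share 1 direction. Of 62 other genes listed by role, 50 were tested, and 18 were higher, 18 lower and 14 not past the threshold, with a median log2 fold change of 0.04. That is 36 of 50 changed, where 62.3% of tested genes were. Rbpj and most of the genes with at least a 2-fold change and 1 CPM are named by rule, and the other examples were picked with their values in view.

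Of the other ligands, Jag2 (12.2 ± 0.537 and 12.7 ± 2.17 CPM in knockout and control) and Dll4 (0.406 ± 0.0544 and 0.256 ± 0.0578 CPM) did not pass, with log2 fold changes of -0.06 and 0.66. Jag2 had 0.33 with the median of its neighbours removed (adjusted p = 0.0403). Dner, a neural transmembrane protein proposed as a Notch ligand outside the canonical set, had 55.9, 36.7 and 35.6 CPM in the knockout, while the control had 2.61, 2.35 and 2.13 CPM. Its knockout libraries were all far above the control, with replicate 1 highest, and the log2 fold change was 4.17 (SE 0.19, edgeR adjusted p = 4.43e-09). Notch4, the remaining receptor, averaged below 1 CPM in both groups and did not pass (log2 fold change 0.64, edgeR adjusted p = 0.197).

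Fringe enzymes, which add sugars to Notch and shift its preference between Delta and Jagged ligands, moved in opposite directions. Mfng rose from 2.86 ± 0.00306 to 10.8 ± 2.95 CPM (log2 fold change 1.92, edgeR adjusted p = 3.64e-06), with 14.2 CPM in knockout replicate 1 and 9.15 and 9.05 in the others. Lfng fell from 68.4 ± 2.49 to 36.8 ± 0.693 CPM (log2 fold change -0.89, edgeR adjusted p = 2.02e-07). Of the 6 glycosylation genes Pofut1 also rose, by 0.54 on the log2 scale, Eogt had -0.46 and passed as lower, and Rfng and Poglut1 did not pass.

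Of the 4 ubiquitin ligases that drive ligand endocytosis, Neurl1b rose from 24.8 ± 6.14 to 52.9 ± 10.6 CPM (log2 fold change 1.09, edgeR adjusted p = 0.000125) and Neurl1a was lower at 0.505 ± 0.0321 against 1.17 ± 0.197 CPM. Mib1 and Mib2 had log2 fold changes of -0.24 and 0.21, and both passed. Mib1 did not pass without control replicate 1 (adjusted p = 0.0673) or 3 (0.0545), or with limma on TPM (0.0953). With the median of its neighbours (0.34) removed, Mib1 had -0.58. Mib2 had 0.14 without control replicate 2 (adjusted p = 0.191), did not pass without control replicate 3 or Bcat1-KO replicate 2 or 3 either, and had 0.06 with the median of its neighbours removed.

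Receptor processing genes were split as well, with 4 of 10 higher and 4 lower, where 32.0% of all tested genes were higher and 30.3% lower. The higher ones were Adam10 and Adam17, the sheddases (log2 fold changes 0.56 and 0.44), and the gamma-secretase genes Aph1b and Aph1c. With the median of its neighbours removed, Adam10 had 0.29 and Adam17 had 0.21, and each still passed. Aph1b rose from 9.86 ± 0.737 to 23.4 ± 4.81 CPM and Aph1c from 1.89 ± 0.0896 to 4.17 ± 0.92 CPM (log2 fold changes 1.24 and 1.14). These 2 are similar neighbouring copies between which reads can be divided, and their neighbours had medians of 0.49 and 0.42. The lower ones included Furin, which makes the first cut in the receptor (-0.99), and the gamma-secretase genes Psen2 (-0.35) and Ncstn (-0.31). Psen2 did not pass without control replicate 2 (adjusted p = 0.0812).

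Among trafficking genes Numb, an endocytic inhibitor of Notch, fell from 25.7 ± 0.559 to 13.9 ± 0.861 CPM (log2 fold change -0.89, edgeR adjusted p = 2.58e-06), next to neighbours with a median of -0.56. The Deltex gene Dtx3 fell from 200 ± 31.6 to 81.3 ± 7.73 CPM (log2 fold change -1.30, edgeR adjusted p = 8.39e-07; neighbour median -0.45). Dtx4 was also lower (-0.46), Dtx2 and Fbxw7 were higher (0.29 and 0.26), and 4 of the 9 did not pass. Dtx2 did not pass without control replicate 1 or 3 or Bcat1-KO replicate 2 (adjusted p of up to 0.105), nor Fbxw7 without control replicate 2 (0.0644).

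In the nuclear complex 6 of 9 tested genes were lower and 2 higher, where 30.3% of all tested genes were lower and 32.0% higher. Rbpj, the DNA-binding partner of all Notch receptors (chr5:53466152-53657362), had 75.4, 72.7 and 73.2 CPM in the knockout, while the control had 99.1, 102 and 108 CPM. The groups did not overlap, and the log2 fold change was -0.48 (SE 0.06, edgeR adjusted p = 3.31e-05). The coactivator gene Maml3 fell from 38.5 ± 1.24 to 11.6 ± 1.26 CPM (log2 fold change -1.72, edgeR adjusted p = 1.38e-08), while Maml2 rose from 23.4 ± 0.415 to 43.1 ± 3.75 CPM (0.88) and Maml1 had -0.28. Of the Groucho corepressors, through which Hes proteins act, Tle2 fell from 164 ± 28.3 to 68.3 ± 7.47 CPM (-1.27; neighbour median -0.45), Tle4 and Tle1 were lower (-0.98 and -0.44) and Tle3 was higher (0.38). Tle1 did not pass with the neighbours' median removed (-0.15, adjusted p = 0.0807).

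**Figure D4:**
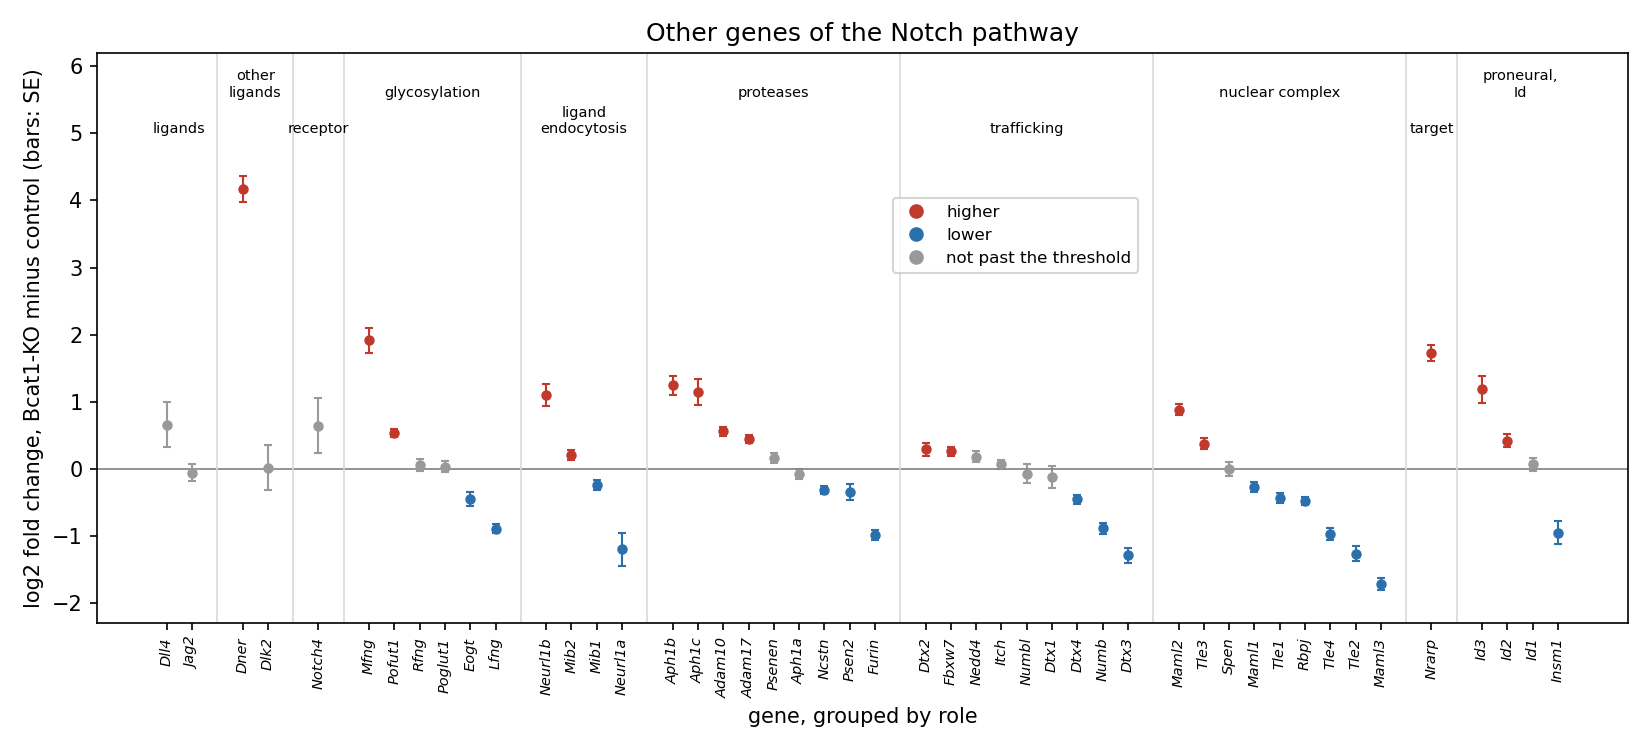
Log2 fold change, knockout minus control, with its SE, of 47 of the 50 tested genes outside the main set, grouped by role; red points passed as higher, blue as lower, grey did not pass. Neurod1, which had 0 counts in the control, is not among them. Dner, Mfng and Nrarp are the highest points and Maml3 the lowest.

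Of 6 further genes listed as targets or as Hes and Hey factors, 1 passed the filter. Nrarp, which is induced by Notch and dampens it, had 46.0, 33.2 and 35.6 CPM in the knockout, while the control had 11.7, 11.4 and 11.7 CPM. All knockout libraries were above all control libraries, and the log2 fold change was 1.72 (SE 0.12, edgeR adjusted p = 1.47e-07). Hes2, Hes3, Hes7, Hey2 and Heyl did not pass the filter on low counts, with Hey2 at 10, 10 and 9 counts in the knockout libraries and 1, 0 and 2 in the control libraries. In the fit with no filter Hey2 passed as higher (log2 fold change 2.88, edgeR adjusted p = 0.000807) and the other 4 did not pass. That fit gave far smaller p-values for genes such as Nrarp (edgeR adjusted p of 4.76e-65, against 1.47e-07 with the filter). Its p-values for such low counts are therefore to be read with caution.

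Of the 11 proneural and Id genes listed, 6 were tested, and 4 were higher and 1 lower. Among all tested genes 32.0% were higher and 30.3% lower. Neurod1, a proneural-type bHLH factor of neuronal differentiation, had 73 counts over the knockout group and 0 over the control, which puts it at least 20.6-fold higher when 3 counts are assumed for the control libraries together. That floor covers counting error only. Of the Id genes, whose products block bHLH factors, Id3 rose from 8.32 ± 1.03 to 18.9 ± 6.28 CPM, with 26.2 CPM in knockout replicate 1 and 14.8 and 15.9 in the others (log2 fold change 1.18, edgeR adjusted p = 0.000276). Id2 was higher by 0.42, and not past the threshold with its neighbours' median removed (adjusted p = 0.056), and Id1 did not pass. Insm1, a zinc finger factor of neuronal progenitors, was lower (-0.96).

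For the 3 members with the largest change, the genes with the most similar profile over the 6 libraries were found by the root mean square distance of log2 CPM, each gene centred on its control mean. Those nearest to Hes5 were Phyhipl, Gas7 and Thsd7a, at distances of 0.114, 0.119 and 0.123. Gas7 went from 8.43 ± 0.358 to 76.1 ± 15.1 CPM. Those nearest to Notch3 included Fam171b and Nav3 (0.0546 and 0.0668), and Fam171b went from 5.17 ± 0.174 to 20.8 ± 1.82 CPM. Those nearest to Hey1 were Bdh1, Plcd1 and Vat1 (0.057, 0.0814 and 0.0901). With 2 groups of 3 libraries such a distance reflects mainly a similar fold change, and many genes changed in these data.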

How the data were processed

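RNA of 3 Bcat1-KO and 3 control samples was prepared as stranded poly(A) libraries, per the labels' protocols, with the build mm10, the aligner STAR (2.5.3a) and featureCounts named in the submitters' processing notes. No release of the gene annotation is given in the sources used here. The deposited counts are raw reads per gene on each strand and without regard to strand. Of stranded reads 96.37% to 96.45% were on the reverse strand, and these were tested. The authors' TPM values sum to the same total in every library.

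edgeR 4.0.16 (R 4.3.3) filtered genes (14020 kept, 0.0511% of counts removed), scaled by TMM and ran a quasi-likelihood test with Benjamini-Hochberg adjustment over all tested genes, with no covariate. It was also run on simulated counts with far fewer changed genes than these data, so that run does not check its error rate here. SEs are the log2 fold change over the root of F. Log2 CPM used a prior count of 2, and count ratios added 0.5. Alternatives were RLE and upper-quartile scaling, no filter, DESeq2 1.42.0, limma 3.58.1 on log2(TPM + 1), unstranded counts, a 1.5-fold threshold, a replicate block, removal of the median of 50 neighbouring genes, and leaving out each library. Gene types came from GENCODE M21 and promoter windows from RefSeq.

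The members and lists were chosen with earlier results of these data known. The rule for naming genes from the pathway lists asked for a mean of at least 1 CPM, a pass of the threshold and an absolute log2 fold change of at least 1. It took up to 4 per list, with Rbpj always named. Other genes of the lists were named outside this rule, picked with their values in view. A few genes that this rule or the profile search named are not reported here. For the 3 members with the largest change, the 3 nearest genes were named, leaving out predicted models, pseudogenes and members.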

Additional observations from a re-analysis of the deposited data

How the results depend on the processing

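The calls of Hes5, Notch3, Hey1, Dll1 and Dll3 held in all 15 alternatives, with log2 fold changes of 3.08 to 3.37, 1.89 to 2.08, 1.73 to 1.94, 1.48 to 1.67 and 1.49 to 2.04. Those of Notch1, Notch2 and Hes1 held in all but the test against a 1.5-fold threshold, where they kept their values (0.42, -0.73 and -0.40) and had adjusted p of 1, 0.0749 and 1. That test called 5 members higher and 0 lower, 10 other pathway genes higher and 9 lower, and 1564 of all genes higher and 1481 lower, since it asks for a larger change. The 0 lower members compare with 2 lower in edgeR's test of any change and in DESeq2. Jag1 did not pass with RLE scaling (0.22), upper-quartile scaling (0.23), DESeq2 (0.22), limma on TPM (0.28), the 1.5-fold threshold (0.24) or a replicate block (0.23, adjusted p = 0.0511), and was at -0.05 with the neighbours' median removed; leaving out 1 library gave 0.13 to 0.32. Hes6 was at 0.23 and past the threshold with the neighbours' median removed, and leaving out 1 library gave -0.022 to 0.15. The knockout minus control difference in the log2 ratio of Dll1 to Dll3 went from -0.21 to 0.0024 without Bcat1-KO replicate 1. This difference ranged from -0.40 to 0.0024 over the libraries left out. The cause was not tested for the changes of Jag1, Hes6 and this ratio.

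Replicate numbers are shared by the groups, but the titles do not say what they mark, so same-numbered libraries were not taken as pairs. Their deviations from the group means had correlations of -0.051, -0.073 and 0.156. Those of knockout and control libraries with different numbers had -0.118 to 0.176. With a replicate block 6 members were higher and 2 lower, and 4448 of all genes were higher and 4214 lower; Jag1 was the 1 member whose call it changed. Orders of members by TPM were the same by counts per length, but TPM is itself counts per length scaled within a library, so this agreement is no separate check. With no filter on low counts, 4 more pathway genes passed, Hey2 and Neurod4 as higher and Rbpjl and Id4 as lower. All 4 had low counts, and that fit gave far smaller p-values for some genes than the fit with the filter, so these calls are weak.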
